A study of Mus musculus with 6 samples.

Results

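The S100 calcium-binding protein genes were followed in mouse bone marrow cultures with and without midkine. The 8 genes S100a1, S100a4, S100a6, S100a8, S100a9, S100a10, S100a11 and S100a13 were taken by symbol from a table of 14912 genes, and all 8 had reads in every library. Bone marrow cells of wild-type C57BL/6J mice were grown with FLT3 ligand at 50 ng/ml, which drives dendritic cell development, and the medium was renewed on day 7. For the last 2 days of culture 3 samples were also given midkine (recombinant, human), a secreted growth factor that binds heparin, at 10 ng/ml. The 3 control samples received FLT3 ligand without midkine. RNA was read by 3' end sequencing of the whole culture, with no sort of the cells stated in the labels. Whether a replicate was its own mouse or its own culture is not said in the labels, and p-values therefore reflect only how far these samples vary, possibly for technical reasons.

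S100 proteins are small proteins with paired EF-hand loops that bind calcium and then dock onto partner proteins, mostly as dimers. S100a8 and S100a9 form calprotectin, a heterodimer abundant in neutrophils and young monocytes that can be released and bind Toll-like receptor 4 and the receptor Ager. S100a4, S100a6, S100a10 and S100a11 act mainly inside cells on the cytoskeleton, on membranes and on annexins, and they are made by many myeloid cells and by fibroblasts.

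Depth ranged from 5089338 to 5532055 reads over the control libraries and from 5685055 to 6453768 over those with midkine. Mitochondrial ribosomal RNA took 9.33% to 9.86% of the reads in control and 18.1% to 20.9% in midkine libraries. The labels give the RNA integrity number only as a mean of 8 (range 5 to 10), the same for every sample. RNA quality therefore cannot be compared between the groups. General dendritic cell markers were present in all libraries (summed normalised read counts 47034 to 50554 in control and 53699 to 57056 in midkine libraries). Of the 7 genes in that list, Itgax (log2 fold change 0.83) and H2-Ab1 (0.27) rose and Zbtb46 (-0.47) fell, while 1 rose and 3 fell with scaling to total counts. The H2-Ab1 call was lost with scaling to total counts, with quantile normalization, with no variance trend and without control replicate 3.

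With midkine S100a8 and S100a9 nearly disappeared, S100a13, S100a4 and S100a10 were lower by smaller amounts, and no change was called for S100a1, S100a6 or S100a11. Of the 8 members 5 fell (62.5%) and none rose in limma at an adjusted p under 0.05. Over all 11844 genes tested 21.8% fell and 20.9% rose, or 42.7% in either direction. Neither limma at an unadjusted p under 0.05, nor edgeR, nor DESeq2 called a member higher (0 in each). The median log2 fold change was -0.51 over the members and -0.01 over all genes tested. The groups did not overlap for 6 of the 8 members, 5 of them lower and 1, S100a6, higher with midkine. Over all genes tested this held for 51.3%, with 26.2% lower and 25.1% higher. Fewer cells of a type and less RNA per cell cannot be told apart in these bulk samples.

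**Figure D1:**
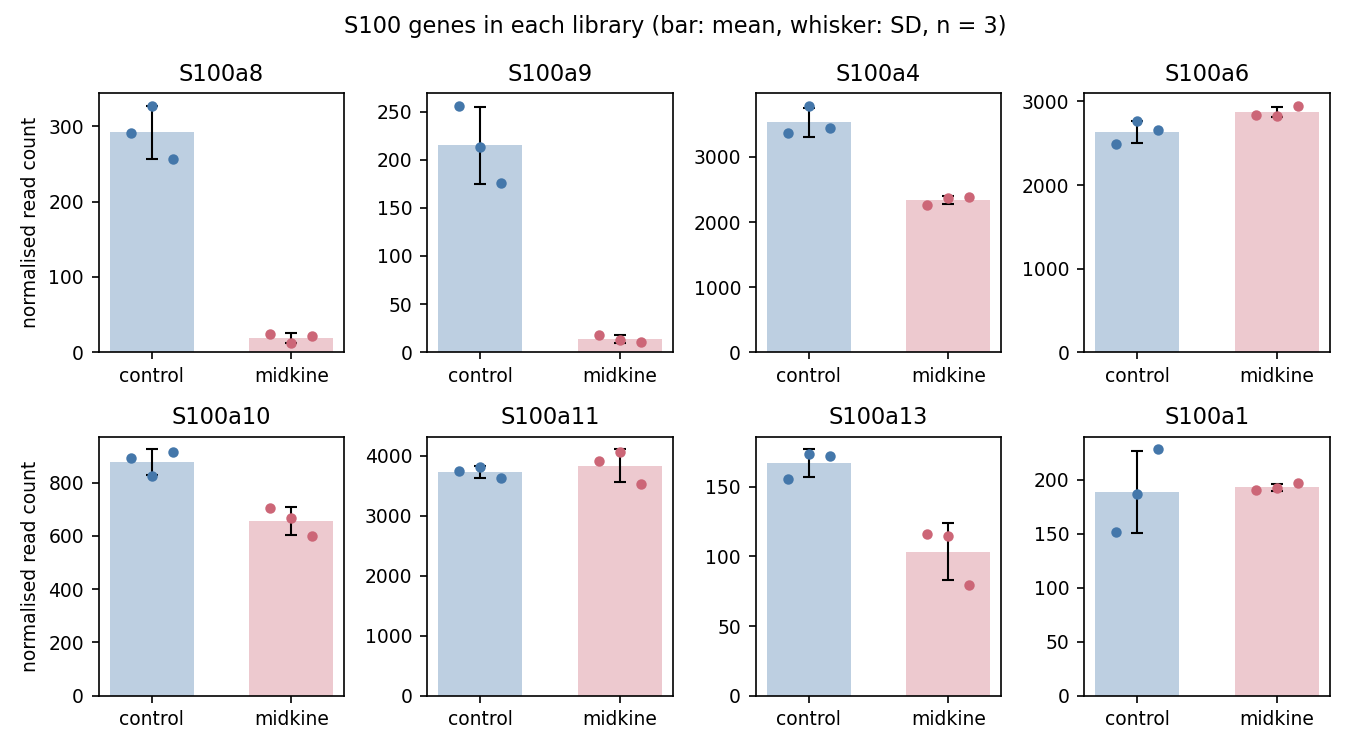
Normalised read counts (vertical axes, from 0) of the 8 S100 genes in the 3 control and 3 midkine libraries; points are libraries, bars means and whiskers SD (n = 3). S100a8 and S100a9 lie near the floor of their panels with midkine, at 18.9 and 13.6 on average, while S100a6 and S100a11 stay close to their control levels.

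The calprotectin genes lie near each other on chromosome 3 in opposite orientations. S100a8 runs on the plus strand from 90668978 to 90670035 of GRCm38 and S100a9 on the minus strand from 90692632 to 90695721, with 22596 bases between them. Their start regions are shown because they are the pair with the deepest falls and their transcripts fell together. The windows reach from 250 bases before to 50 bases after the RefSeq start (GRCm38.p6), chr3:90668821-90669120 on the plus strand for S100a8 and chr3:90695672-90695971 on the minus strand for S100a9. Capitals mark matches, on either strand, to a TATA box (TATAAA), a C/EBP core (TTNNGNAA), a PU.1 core (GAGGAA) or a STAT core (TTCNNNGAA).
S100a8: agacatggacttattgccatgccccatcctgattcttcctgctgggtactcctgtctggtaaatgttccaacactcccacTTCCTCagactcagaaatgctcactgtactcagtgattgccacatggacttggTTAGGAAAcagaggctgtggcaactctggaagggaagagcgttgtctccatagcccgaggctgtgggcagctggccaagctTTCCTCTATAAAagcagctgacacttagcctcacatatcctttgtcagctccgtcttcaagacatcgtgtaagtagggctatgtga
S100a9: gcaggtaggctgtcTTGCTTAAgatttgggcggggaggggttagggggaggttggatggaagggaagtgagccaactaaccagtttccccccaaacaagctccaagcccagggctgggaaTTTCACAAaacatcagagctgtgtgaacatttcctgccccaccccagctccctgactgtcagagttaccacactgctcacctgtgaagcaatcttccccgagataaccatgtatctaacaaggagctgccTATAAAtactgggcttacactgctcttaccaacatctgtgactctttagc
The S100a8 window held 1 TATA box, 1 C/EBP core and 2 PU.1 cores, one of which ends where the TATA box begins. The S100a9 window held 1 TATA box and 2 C/EBP cores and had no match to the PU.1 letters. The TATA letters lay at bases 221 to 226 of the S100a8 window, before the RefSeq start. In the S100a9 window they lay at bases 251 to 256, directly after the 250 bases before that start. Of 32851 RefSeq windows of this length 13.6% held the TATA letters, 40.7% the C/EBP letters, 28.3% the PU.1 letters and 8.3% the STAT letters. These letter matches are descriptions of the sequence, and binding was not measured here.

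S100a8 stood at 292, 327 and 257 normalised read counts in the 3 control libraries and at 23.7, 11.9 and 21.2 in the 3 midkine libraries. Every midkine library lay far under every control library. The mean fell from 292 ± 35.0 to 18.9 ± 6.19 (SD, n = 3 each), 15.4-fold lower. The log2 fold change was -3.93 (95% confidence interval -4.33 to -3.53, limma adjusted p = 1.96e-14). These values rested on 907 control reads and 55 midkine reads in all. S100a9 stood at 256, 213 and 176 in control and at 18.0, 12.8 and 10.1 in midkine libraries. The S100a9 mean fell from 215 ± 40.0 to 13.6 ± 4.03, 15.7-fold lower (log2 fold change -3.90, 95% confidence interval -4.32 to -3.48, limma adjusted p = 5.28e-14), on 668 and 40 reads. Both genes thus lost most of their reads while remaining detectable in each midkine library.

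Among the 11844 genes tested, ordered by log2 fold change from the most negative, S100a8 was number 9 and S100a9 number 11, so that 0.0929% of genes were called and lay at or beyond S100a9. The number of S100a8 reads for each S100a9 read was 1.14, 1.54 and 1.46 in control libraries. It was 1.31, 0.929 and 2.10 in midkine libraries, where it rests on 10 to 21 reads per gene. These ranges overlap, so no shift between the partners was detectable at this depth. Together the pair made up 4.36% ± 0.532 of the reads of the 8 members in control and 0.325% ± 0.0865 in midkine libraries (SD, n = 3 each).

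Markers of granulocytes and monocytes, the cells known for calprotectin, were mixed in direction. Ly6c2, listed here as a monocyte and macrophage marker, fell from 57.1 ± 13.7 to 2.07 ± 1.07 normalised read counts (SD, n = 3 each; log2 fold change -4.28, limma adjusted p = 8.36e-10). Which cells of the culture made it was not measured. Other genes of the monocyte and macrophage list fell by less, rose or were not called. With the deposited size factors Ccr2 (0.07), Csf1r (-0.21), Cd14 (0.19) and Fcgr1 (-0.23) were not called, and calls in both directions are given below. Ngp, a neutrophil granule gene, fell from 63.9 ± 5.83 to 5.52 ± 2.41 (log2 fold change -3.39, limma adjusted p = 2.27e-09). Only 4 of 19 measured neutrophil markers passed the minimum mean of 10, with Ngp lower, Mmp8, a collagenase gene of neutrophil granules, higher (1.20) and Mpo and Mmp9 not called. Without that minimum 5 neutrophil markers fell and 2 rose. Of the 15 markers under the minimum most had fewer reads with midkine and the others had more. They are given here as sums over 3 libraries and were named after their values were seen. Ltf, the lactoferrin gene, had 42 control and 4 midkine reads, Camp, the cathelicidin gene, 34 and 11, Lcn2, an iron-scavenging lipocalin gene, 23 and 4, and Chil3, a chitinase-like gene, 41 and 4. Csf3r, the receptor gene for a neutrophil growth factor, had 15 and 41, Prtn3, a granule protease gene, 24 and 34, Ctsg, the cathepsin G gene, 2 and 4, and Padi4, a deiminase gene, 2 and 6. The lineage-defining Ly6g had 1 and 0 reads and Elane 5 and 0. Retnlg had 8 and 1, Cxcr2 12 and 5, Stfa2l1 7 and 4, Olfm4 3 and 0, and Fcnb 1 and 0. The summed level of the neutrophil list was 160.5 to 208 in control and 112 to 126 in midkine libraries. The part of fewer granulocytes or monocytes in the fall of S100a8 and S100a9 was not tested.

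**Figure D2:**
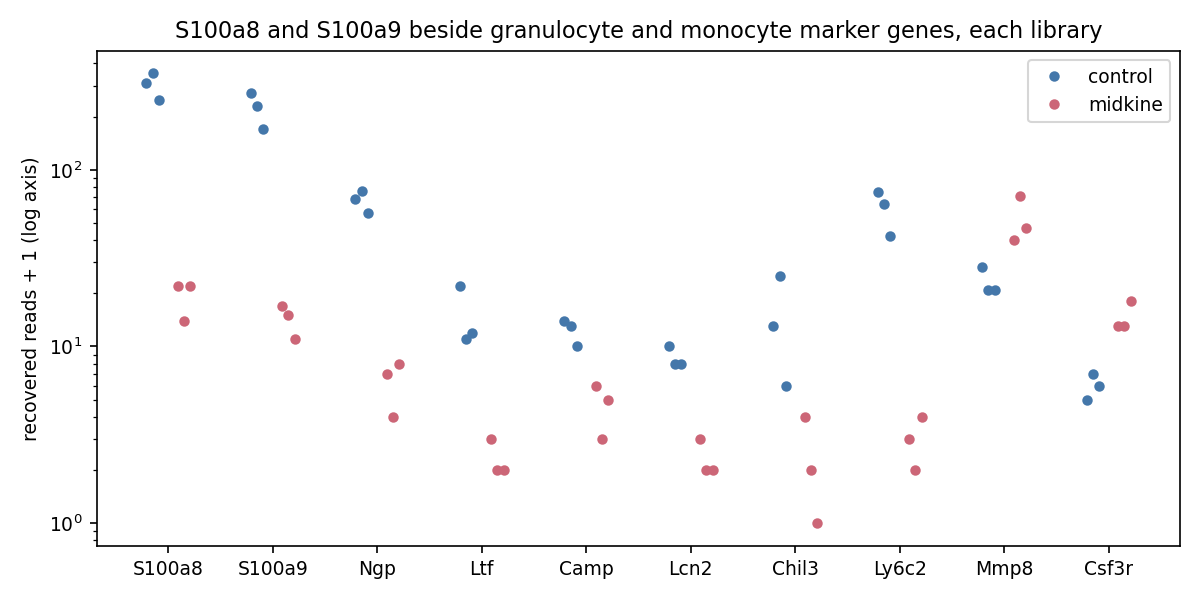
Recovered reads plus 1 (log axis) of S100a8, S100a9 and 8 granulocyte or monocyte marker genes chosen after their values were seen; each point is 1 library, 3 per group. Control points lie above midkine points for S100a8, S100a9, Ngp, Ltf, Camp, Lcn2, Chil3 and Ly6c2, and below them for Mmp8 and Csf3r.

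Markers of other cell types were not uniformly lower. Of 16 monocyte and macrophage markers 6 rose and 5 fell (median log2 fold change 0.13). Scaled to library totals, 3 were higher and 7 lower, and with a minimum mean of 50 the number that fell was 3. Their summed level was 13573 to 15526 in control and 18472 to 19073.5 in midkine libraries. Fn1, the fibronectin gene (1.098), rose from 2879 ± 290 to 6147 ± 267 (SD, n = 3 each). Most of the rise in the summed level lay in this gene. The complement genes C1qa (-1.21), C1qb (-0.90) and C1qc (-0.75) and F13a1 (-0.71), a transglutaminase gene, fell. Of 10 basophil, eosinophil and mast cell markers 9 were measured and 2 tested, Ccr3 (-3.19) and Kit (-0.44), and both fell. The 7 under the minimum mean had few reads, given as sums over 3 control and 3 midkine libraries. Siglecf had 6 and 13, Mcpt8 16 and 15, Prg2 26 and 2, Prss34 6 and 0, Gata2 3 and 1, Ms4a2 2 and 0, and Cpa3 1 and 0. Plasmacytoid dendritic cell markers fell in 8 of 9 cases (median -1.56), with Ccr9 (-4.77), Siglech (-3.00), Ly6d (-2.69) and Tcf4 (-1.56) at the smallest adjusted p. Type 1 dendritic cell markers fell in 9 of 10 cases (median -0.72), led by Naaa (-1.79), Tlr3 (-1.30), Xcr1 (-1.58) and Clec9a (-1.03), and Itgae (1.51) rose. Of 10 type 2 markers 5 rose, Clec4a4 (1.95), Itgam (0.60), Clec10a (0.57), Mgl2 (0.55) and Sirpa (0.26). The 3 that fell were Cd7 (-1.31), Clec12a (-0.70) and Klf4 (-0.54). With scaling to total counts, or with no variance trend, 3 type 2 markers rose.

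Receptors and regulators tied to calprotectin were called in both directions. Of 8 tested receptor and signalling genes 2 rose and 1 fell, but 1 was higher and 3 were lower when libraries were scaled to their totals. Tlr4, a receptor for the released pair, stood at 39.8 ± 3.04 in control and 32.1 ± 6.21 in midkine cultures (SD, n = 3 each), with overlapping libraries (log2 fold change -0.32, 95% confidence interval -0.76 to 0.13, limma adjusted p = 0.258). Ager, the receptor for advanced glycation end products, stood at 15.5 ± 0.571 and 18.6 ± 8.61 (limma adjusted p = 0.792). Myd88, the adaptor of Toll-like receptors, fell (-0.42), and Bsg, the basigin gene, which also binds S100a9, rose (0.55). Cd69, a lymphoid and myeloid activation marker, was called higher (0.65) with overlapping libraries, and it lost the call in 8 of the 17 alternatives that tested it. Among 6 tested regulators 3 rose and 1 fell. Cebpb, a C/EBP factor gene of myeloid cells, rose from 58.8 ± 3.28 to 234 ± 10.6 (log2 fold change 1.97, limma adjusted p = 3.94e-12). Hif1a (0.81), the hypoxia factor gene, and Cebpd (0.53), another C/EBP gene, rose, although Cebpd was not called with scaling to total counts. Spi1, which encodes PU.1, fell by 0.28 on the log2 scale and was not called with no variance trend. Cebpe, a factor of late granulocytes, had 0 control and 1 midkine read.

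S100a4 and S100a6 lie on the plus strand with S100a5 between them, and S100a4 fell while S100a6 was not called. S100a4, from 90603771 to 90606045 on chromosome 3, encodes a protein that binds non-muscle myosin and is linked to cell motility. S100a4 stood at 3367, 3786 and 3444 normalised read counts in control libraries and at 2265, 2373 and 2379 in midkine libraries. All midkine values lay below all control values. The mean fell from 3533 ± 223 to 2339 ± 64.1 (SD, n = 3 each), 1.51-fold lower (log2 fold change -0.59, 95% confidence interval -0.75 to -0.44, limma adjusted p = 3.98e-07). Exons of S100a4 overlap those of the predicted gene Gm42674 on the same strand, so some reads there may not be counted for either gene. S100a6, from 90612882 to 90624181, encodes calcyclin, a protein of proliferating cells and fibroblasts. S100a6 stood at 2494, 2762 and 2654 in control and at 2842, 2829.8 and 2948 in midkine libraries. The midkine libraries lay just above the control libraries, with means of 2637 ± 135 and 2873 ± 65.0, but the difference was not called (log2 fold change 0.12, 95% confidence interval -0.03 to 0.28, limma adjusted p = 0.176). It was -0.13, also not called, with scaling to total counts.

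The ratio of S100a4 to S100a6 reads within a library does not depend on the scaling between libraries. This ratio was 1.35, 1.37 and 1.30 in control and 0.797, 0.838 and 0.807 in midkine libraries. The groups did not overlap, and the mean changed from 1.34 ± 0.0376 to 0.814 ± 0.0216 (SD, n = 3 each). Both genes are also made by fibroblasts, and stromal markers were higher beside them. Of 9 stromal markers 7 rose (median log2 fold change 1.07), among them Postn (2.35), Col1a1 (1.68), Col1a2 (1.25) and Col3a1 (1.25), and Cxcl12 (-0.68) fell. With scaling to total counts 2 stromal markers fell. The summed stromal level was 14052 to 17354 in control and 36401 to 39332 in midkine libraries, and its part in the S100 values was not tested.

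S100a10 and S100a11 sit together 2824766 bases beyond S100a9. S100a10, from 93555080 to 93564643 on the plus strand, encodes the annexin A2 light chain, an unusual S100 protein that holds its active shape without calcium. S100a10 stood at 893, 825 and 916 normalised read counts in control and at 703, 669 and 599 in midkine libraries. Every midkine library lay below every control library. The mean fell from 878 ± 47.4 to 657 ± 52.9 (SD, n = 3 each), 1.34-fold lower (log2 fold change -0.42, 95% confidence interval -0.59 to -0.24, limma adjusted p = 0.000273). S100a11, from 93520488 to 93526287, encodes calgizzarin, a partner of annexin A1 in membrane repair. S100a11 stood at 3738, 3812 and 3617 in control and at 3912, 4053 and 3527 in midkine libraries, and the groups overlapped. Its means of 3723 ± 98.2 and 3831 ± 272 differed by 0.04 on the log2 scale (95% confidence interval -0.12 to 0.19, limma adjusted p = 0.708). With scaling to total counts S100a11 was called lower at -0.22, and with quantile normalization at -0.21. S100a11 has a processed pseudogene copy, S100a11-ps, in the annotation, between which and S100a11 reads could be split.

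**Figure D3:**
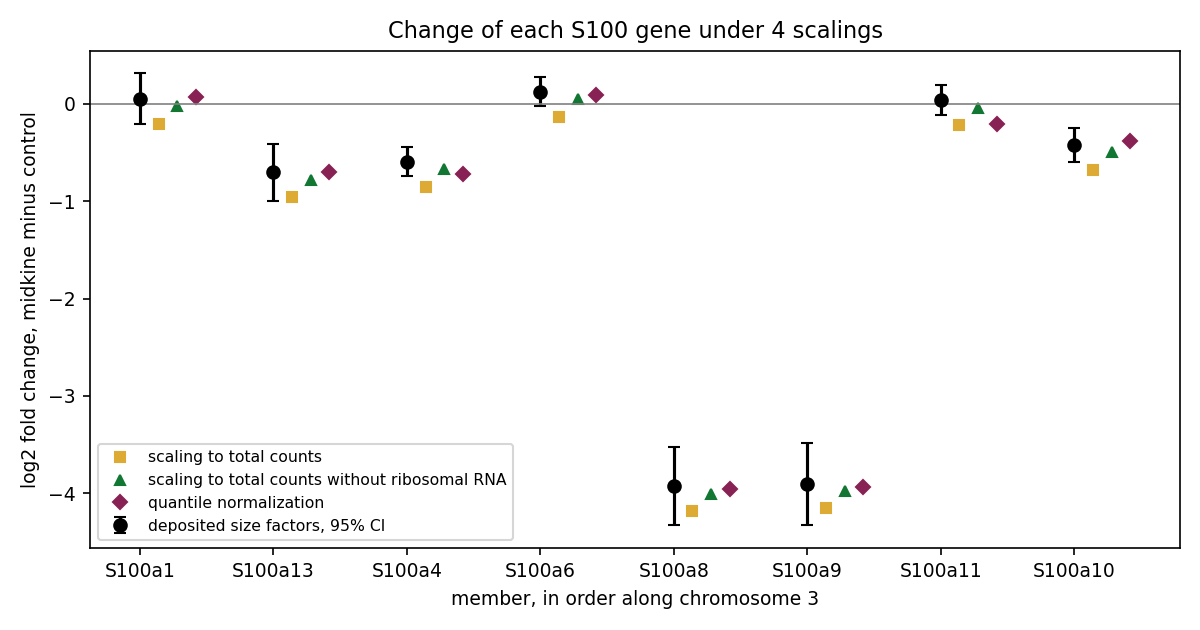
Log2 fold change, midkine minus control, of the 8 S100 genes in their order along chromosome 3, with the deposited size factors (circles, 95% confidence interval) and under 3 other scalings. S100a8 and S100a9 lie near -4 under each scaling, S100a13, S100a4 and S100a10 stay below 0 under all 4, and S100a1, S100a6 and S100a11 change sign between scalings.

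Annexins, the main partners of these proteins inside the cell, were measured for 9 genes, and all 8 tested were called, with 3 higher and 5 lower (median log2 fold change -0.32). Anxa2, whose protein forms a heterotetramer with S100a10, fell from 3369 ± 293 to 2526 ± 219 normalised read counts (SD, n = 3 each; log2 fold change -0.41, limma adjusted p = 0.000194). Ahnak, a giant scaffold gene whose protein binds that complex, fell by 0.41 on the log2 scale. S100a10, Anxa2 and Ahnak thus had log2 fold changes of -0.42, -0.41 and -0.41. Anxa6 (-0.60) fell furthest in the family, and Anxa3 (1.01), Anxa4 (0.89) and Anxa11 (0.52) rose, although Anxa11 was not called with scaling to total counts. Anxa1, which binds S100a11, fell by 0.43 on the log2 scale (limma adjusted p = 0.000766).

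Partners of S100a6 and S100a4 were also measured. Cacybp, the calcyclin-binding protein gene, stood at 336 ± 10.6 in control and 298 ± 14.6 in midkine cultures (SD, n = 3 each; log2 fold change -0.17, limma adjusted p = 0.146). Cacybp was called lower with scaling to total counts (-0.43) and with ribosomal RNA left out of those totals (-0.25). Sugt1, a related chaperone gene, was called at 0.22 (limma adjusted p = 0.0481) and lost that call or its direction in 10 of 18 alternatives. Anxa1, Cacybp and Sugt1 were named as binding partners after their values were seen. Myh9, the heavy chain of the non-muscle myosin that S100a4 binds, rose from 3238 ± 210 to 4582 ± 226 (log2 fold change 0.50, limma adjusted p = 6.59e-06) while S100a4 fell. Of 6 tested partners outside the annexins 4 rose and 1 fell (2 fell under either scaling to totals), and Plaur (2.36) and Plau (0.99), the urokinase receptor and urokinase genes, rose most.

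**Figure D4:**
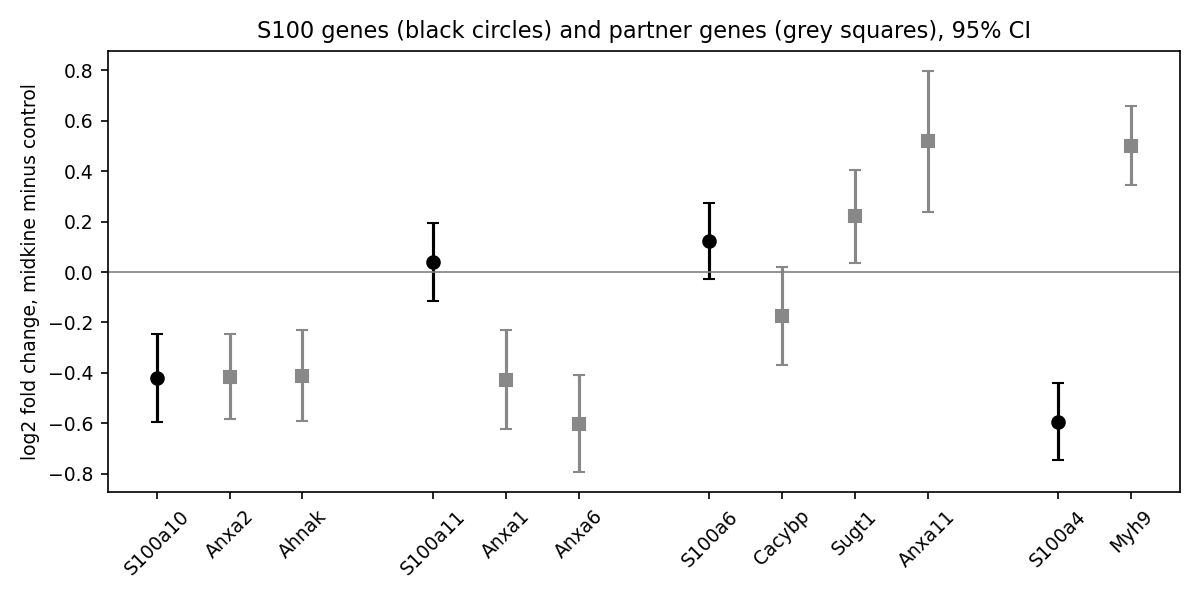
Log2 fold change, midkine minus control, with its 95% confidence interval for 4 S100 genes (black circles) and genes of their binding partners (grey squares, to the right of each S100 gene). S100a10, Anxa2 and Ahnak lie at -0.42 to -0.41, and Myh9 lies above 0 at 0.50 where S100a4 lies below it at -0.59.

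S100a1 and S100a13 start back to back, with 42 bases between the genes. S100a1 lies from 90511034 to 90514392 on the minus strand and encodes a regulator of calcium handling in muscle. S100a13 lies from 90514435 to 90524581 on the plus strand and encodes a protein involved in the export of growth factors and cytokines that lack a signal peptide. The window of S100a13, chr3:90514185-90514484 on the plus strand, shares 204 bases with that of S100a1, chr3:90514281-90514580 on the minus strand. The S100a13 window is shown because a shared start region was followed by different changes of the 2 transcripts.
S100a13: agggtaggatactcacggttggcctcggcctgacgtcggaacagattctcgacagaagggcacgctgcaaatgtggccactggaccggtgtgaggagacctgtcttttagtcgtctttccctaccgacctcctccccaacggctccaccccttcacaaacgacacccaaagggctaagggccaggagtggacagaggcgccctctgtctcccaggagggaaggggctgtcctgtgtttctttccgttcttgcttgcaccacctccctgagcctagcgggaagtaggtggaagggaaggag
Neither window held any of the 4 motifs searched, which says only that those letters are not in these 300 bases. The windows of S100a4 (1 TATA box, 1 PU.1 core) and S100a11 (1 PU.1 core) held matches and that of S100a6 held none. RefSeq windows were found for 7 of the 8 members, all but S100a10.

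S100a13 stood at 156, 174 and 172 normalised read counts in control and at 116, 115 and 79.7 in midkine libraries. Every midkine library lay below every control library, and midkine replicate 3 was the lowest. The mean fell from 167 ± 9.79 to 103 ± 20.6 (SD, n = 3 each), 1.62-fold lower (log2 fold change -0.71, 95% confidence interval -0.999 to -0.41, limma adjusted p = 0.000255). S100a1 stood at 152, 187 and 228 in control and at 190.4, 192 and 197 in midkine libraries, all 3 of which lay inside the control range. Its means were 189 ± 38.1 and 193 ± 3.22, with a log2 fold change of 0.05 (95% confidence interval -0.21 to 0.31, limma adjusted p = 0.778). The interval allows a change of S100a1 from 0.864-fold to 1.24-fold.

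One further S100 gene was measured, S100a16, which lies between S100a13 and S100a4. S100a16 stood at 58.6, 54.1 and 52.1 normalised read counts in control and at 63.1, 95.3 and 82.7 in midkine libraries, without overlap. It was called higher (log2 fold change 0.52, limma adjusted p = 0.0178), against the direction of the members that fell. That call was lost with scaling to total counts (0.27) and when control replicate 3 (0.49), midkine replicate 2 (0.39) or midkine replicate 3 (0.49) was left out. S100pbp, which encodes an S100-binding protein, was not called (-0.06). Another 8 S100 genes were looked up by symbol and were not among the 14912 genes with values.

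The 8 members together took 0.226% ± 0.0162 of the reads in control and 0.163% ± 0.00918 in midkine libraries (SD, n = 3 each). With ribosomal RNA left out of the totals these shares were 0.279% ± 0.0105 and 0.228% ± 0.00497. Genes with the most similar profile over the 6 libraries were sought by the root mean square difference of centred log2 values. The members and predicted genes with Gm or Rik names were left out of this search. For S100a8 these were Fcrla (0.24) and Atp1b1 (0.27), and for S100a9 Pacsin1 (0.19) and Fcrla (0.26). The difference between S100a8 and S100a9 themselves was 0.35. Among all genes tested, predicted genes included, 5 were closer to S100a8 and 4 closer to S100a9. For S100a4 the closest were Nedd8 and Yeats4 (0.05 each), for S100a10 Cyren (0.02) and Kctd10 (0.03), and for S100a13 Acsl3 (0.05) and Psat1 (0.07). This measure includes the difference between the 2 groups, and it is given as a description.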

How the data were processed

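The authors deposited a signal table (14912 genes, 6 libraries) whose values are gene read counts scaled with 1 size factor for each column. Per the submitters' processing notes, the tools were HTSeq, DESeq2, SAMtools 0.1.19, TopHat2 2.0.10, FastQC 0.11.0 and Bowtie 1.0.0, and the builds named are mm10 and GRCm38. Neither the gene annotation nor the use of strand in counting is given in the sources used here. Libraries came from a forward 3' end kit, per the labels' protocols, so levels were not divided by gene length and are compared within a gene. Whole reads were recovered from the value of 1 read in each column (100% of values whole within 1e-06 reads). The 95% confidence intervals are limma intervals for the difference of group means on the log2 scale. They rest on variation between libraries, and no molecular identifiers are named.

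Genes with a mean of at least 10 were tested with limma 3.58.1 (R 4.3.3, variance trend) on log2(value + 1), with Benjamini-Hochberg adjustment over all genes and a threshold of 0.05; fold changes on this scale understate changes of low genes. In simulated midkine against control data of 11643 genes the test found 49 of 80 simulated 1.5-fold changes, 44 of 54 at 2-fold and 63 of 63 at 4-fold, and it made 10 false calls. The simulation changed a far smaller share of genes than the 42.7% called in these data. Its counts therefore may not carry over to this comparison. edgeR 4.0.16 and DESeq2 1.42.0 on recovered reads, other scalings, filters and pseudocounts, and leaving out each library were the alternatives. Positions are from GENCODE M21 of GRCm38 and start regions from RefSeq GRCm38.p6. The members and lists were chosen with earlier results of these data known. From each other list the text names up to 4 called genes with the smallest adjusted p and called genes against its majority; some genes that the rule gives are not reported here. Tlr4, Ager, Cebpe, Mpo, Mmp9, Ly6g, Elane and S100pbp fall outside that rule and were chosen after their values were seen. So do and were Ccr2, Csf1r, Cd14, Fcgr1, Clec4a4, Clec10a, Mgl2 and Sirpa. The basophil, eosinophil and mast cell markers under the minimum mean were also added after their values were seen. Tables and figures used Python 3.11.15 and matplotlib 3.10.9.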

Additional observations from a re-analysis of the deposited data

How the results depend on the processing

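Over 18 alternatives the 5 members that fell, S100a4, S100a8, S100a9, S100a10 and S100a13, kept their direction and their call in each. Their log2 fold changes ranged from -4.18 to -3.64 for S100a8, -4.15 to -3.57 for S100a9, -0.96 to -0.53 for S100a13, -0.85 to -0.54 for S100a4 and -0.68 to -0.35 for S100a10. Scaling to total counts turned the S100a1 log2 fold change to -0.21, the S100a6 log2 fold change to -0.13 and the S100a11 log2 fold change to -0.22 (adjusted p = 0.0340), with Sugt1 at -0.037 and Calm2 at -0.036. Under it the number of all genes higher was 1283 and of all genes lower 4817 (21.0% of calls higher, against 49.0%), and the median over genes tested moved to -0.26. With ribosomal RNA also left out of those totals 38.9% of calls were higher, S100a1 stood at -0.026 and S100a11 at -0.039. Quantile normalization gave S100a11 -0.21 (adjusted p = 0.0146). Leaving out 1 library at a time, S100a1 ranged from -0.095 to 0.20 and S100a11 from -0.0027 to 0.10. On recovered reads edgeR called 2585 genes higher and 2572 lower, and DESeq2 2067 and 2021. The replicate block gave 2519 higher and 2641 lower against 2481 and 2578 without it, and the same number of members lower, 5; libraries of 1 number did not deviate together (correlations -0.058 to 0.029), so the numbers were not taken as pairs. Of 576 list counts 520 stayed within 1.5 times. With 55 and 40 midkine reads in all, depth limits any comparison of S100a8 and S100a9 among midkine libraries. The cause of these shifts was not tested.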

Other observations

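Other calcium sensors and a target of calprotectin were examined beside the S100 genes. Of 12 tested EF-hand genes outside the S100 family 7 fell and 1 rose (median log2 fold change -0.29). Efhd2 (-0.66), which encodes swiprosin, Cetn3 (-0.40), a centrin gene, and Lcp1 (-0.32), the plastin gene of leukocytes, fell, and Lcp1 was not called with no variance trend. Calm2 (0.22) rose, with the call lost in 5 of 18 alternatives. Of 6 subunit genes of the phagocyte NADPH oxidase, to which calprotectin delivers arachidonic acid, Cybb fell (-0.38) and Ncf4 rose (0.63), and 3 fell with scaling to total counts.

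Between the first and the last S100 member on chromosome 3 the annotation lists 113 other genes, of which 5 had values and 2 were tested. Both were called higher, S100a16 and the predicted gene Gm19739 (0.62), whose call was lost in 3 of 18 alternatives.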
